A study of Danio rerio with 6 samples.

Results

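The sham hearts of clofv087b/+ zebrafish, heterozygotes of the cloche locus (het), were compared with the sham hearts of wild-type (WT) zebrafish by droplet sequencing of single ventricular cells. The members were the cells of 1 het sham library and 1 WT sham library that had at least 500 unique molecular identifiers (UMIs, 1 per captured transcript), at least 200 genes and at most 30% of UMIs from the mitochondrial genome. These were 9016 het cells and 11421 WT cells, 20437 of the 65399 cells that passed the same limits in all 6 libraries of the series. Each library pooled 15 adult ventricles, digested for 3 h at 4 °C with protease. Hoechst-stained single cells were sorted, and about 12000 were loaded from suspensions with over 85% viable cells. The titles name both libraries sham, while their treatment label reads untreated, and neither library had an amputation time. No age, sex or clutch was used here.

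There was 1 library per genotype and therefore no replicate. No test of the genotype is possible, and every difference below is a difference between these 2 libraries, which may hold the spread between pools of fish, dissections and captures as well as the genotype. Intervals in parentheses are exact 95% intervals and cover counting error only.

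Cloche is the zebrafish locus whose homozygous loss removes nearly all endothelial and blood cells of the embryo. The gene at the locus, npas4l, encodes a bHLH-PAS transcription factor that acts at the top of this programme, upstream of the transcription factors etv2, tal1 and lmo2. In the adult heart, endothelium lines the chamber as endocardium and forms the coronary vessels, while thrombocytes, the nucleated fish counterpart of platelets, erythrocytes and macrophages come from the blood lineage.

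The het library held 75454446 UMIs in 9445 deposited barcodes, against 117947578 UMIs in 12037 barcodes in the WT library. Kept cells had a median of 4434 UMIs and 1161 genes in het and 7184 UMIs and 1550 genes in WT, and 28 barcodes occurred in both libraries. The median mitochondrial share was 3.99% in het and 3.57% in WT. Cells were named by raw UMIs of marker genes into 11 classes, which carry the ending -like because they were rebuilt from markers. Each class had genes of its own marker panel and none of another panel among its 10 leading genes. These included the cardiomyocyte genes myh7l and ttn.2, the endothelial genes cdh5 and kdrl, and the macrophage genes marco and mfap4. Such panel genes had named the cells, so their lead is no independent check of the classes. The cardiomyocyte gene pln, also a leading gene of its class, lay outside the panels. The B-like class had 1 panel gene among its 10, beside immunoglobulin genes. Markers of one class were found at low levels in the others, in both libraries. Outside cardiomyocyte-like cells, the summed level of the cardiomyocyte panel ranged between 1232 and 7323 CPM (UMIs per 1000000 UMIs of the class) in het and between 2503 and 17070 CPM in WT, depending on the class. Outside erythrocyte-like cells, the erythrocyte panel ranged between 189 and 1935 CPM in het and between 56.0 and 621 CPM in WT.

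The targeted gene came first as a check on the labels. Over all cells, npas4l (ENSDARG00000116511) had 24 UMIs in het and 55 UMIs in WT, or 0.322 CPM in het and 0.472 CPM in WT. The log2 ratio, here and below het over WT, was -0.55 (-1.31 to 0.17), an interval that includes 0, so a difference was not detectable at this depth and the level of npas4l did not check the genotype labels. Most npas4l UMIs lay in cardiomyocyte-like cells, 17 in het and 42 in WT, at 0.548 CPM in het and 0.672 CPM in WT. In endothelial-like cells npas4l had 0 UMIs in both libraries, which allows a level of up to 0.635 CPM in het and 0.599 CPM in WT. Of the protein-coding neighbours of npas4l, 3 had enough UMIs to be measured and none differed by 2-fold after adding 10 CPM to both levels. Of them, lbh stood at 4.63 CPM in het and 7.19 CPM in WT, lclat1 at 15.3 CPM in het and 15.6 CPM in WT, and klhdc3 at 2.43 CPM in het and 2.65 CPM in WT. The WT levels of lbh and klhdc3 lay below the 10 CPM added, so neither gene could have been called 2-fold lower.

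The libraries differed in their mix of cells. Cardiomyocyte-like cells were 19.04% of het cells (18.2 to 19.9%), against 39.4% of WT cells (38.5 to 40.3%). Endothelial-like cells, the lineage named by the cloche phenotype, were 12.1% of het cells and 11.3% of WT cells, and the log2 ratio of 0.11 had an interval that includes 0 (-0.01 to 0.22). Several classes of the blood lineage had a larger share in het. Erythrocyte-like cells were 350 in het and 25 in WT, or 3.88% of het cells (3.49 to 4.301%) and 0.219% of WT cells (0.142 to 0.323%). Thrombocyte-like cells were 539 in het and 142 in WT, or 5.98% of het cells (5.50 to 6.49%) and 1.24% of WT cells (1.05 to 1.46%), 4.81 times the WT share. B-like cells were 111 in het and 9 in WT, and T or NK-like cells were 92 in het and 30 in WT.

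Epicardial or fibroblast-like cells were 6.18% of het cells and 2.88% of WT cells, and mural-like cells, the smooth muscle and pericyte class, were 3.29% of het cells and 1.83% of WT cells. Macrophage-like cells were 21.0% of het cells and 24.5% of WT cells. Neutrophil-like cells were 0.632% of het cells and 0.517% of WT cells, with a log2 ratio of 0.29 (-0.26 to 0.84). Glia-like cells were 29 in het and 3 in WT, a log2 ratio of the shares of 3.61 (1.92 to 5.97). Cells whose highest panel passed the naming limits but scored under 1.5 times the next panel were 11.9% of het cells and 8.06% of WT cells. They were shallow, with a median of 752.5 UMIs in het and 814 UMIs in WT. Cells whose highest panel missed the limits were 13.4% of het cells and 9.69% of WT cells. The shares add up to the whole library, so a lower share of one class raises the others, and no share says how many cells of a class a heart held. Depth differed between classes and libraries: cardiomyocyte-like cells had a median of 20477 UMIs in het and 15287 UMIs in WT, and erythrocyte-like cells 711 UMIs in het and 957 UMIs in WT.

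**Figure D1:**
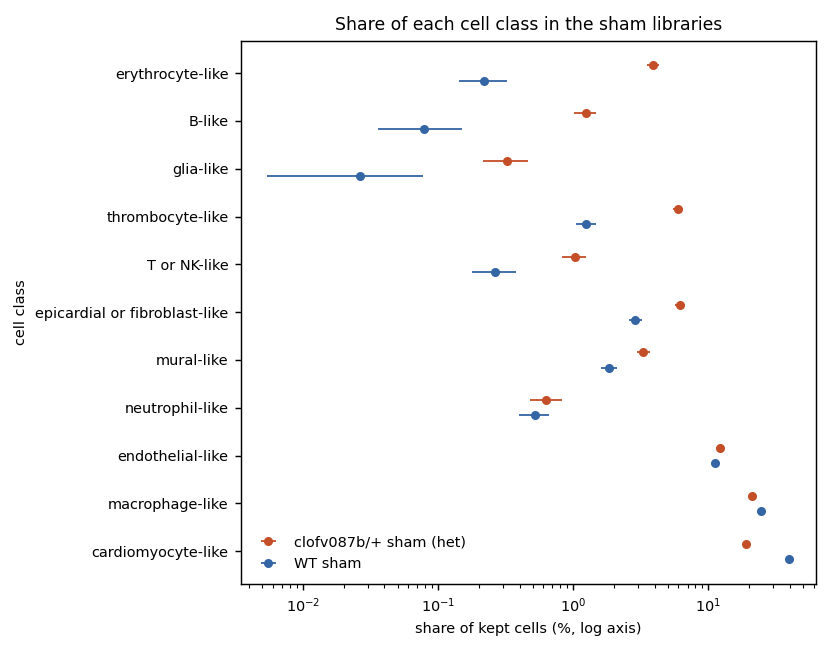
Share of kept cells in each class (percent, logarithmic axis) in the het sham library and the WT sham library, with exact 95% binomial intervals. Erythrocyte-like cells were 3.88% in het and 0.219% in WT, endothelial-like cells 12.1% in het and 11.3% in WT, and cardiomyocyte-like cells 19.04% in het and 39.4% in WT.

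Over all cells, the haemoglobin genes were the highest in het and genes of cardiac muscle and of the interferon response were among the lowest. A gene was measured where it had at least 50 UMIs in at least 1 library, and 2-fold refers to the ratio after adding 10 CPM to both levels. Of 15220 genes, 98 were 2-fold higher in het (0.644%) and 99 were 2-fold lower (0.65%), or 1.29% either way. The beta globin gene hbba1 stood at 1632 CPM in het and 260 CPM in WT (2 gene identifiers summed). The alpha globin gene hbaa1 stood at 1046 CPM in het and 169 CPM in WT, and si:ch211-5k11.8, a gene highest in erythrocyte-like cells, at 908 CPM in het and 163 CPM in WT. With the class mix of both libraries held at their mean, the log2 ratios of hbba1, hbaa1 and si:ch211-5k11.8 turned to -0.25, -0.31 and -0.45. These values lean on the erythrocyte-like class, which had 25 WT cells and a panel of 355592 CPM in het and 528282 CPM in WT. In each of the 6 classes with at least 100 cells in both libraries, hbba1, hbaa1 and si:ch211-5k11.8 were 2-fold higher in het. The globin genes hbba2 and hbaa2 stood at 110 and 59.9 CPM in het and at 14.6 and 5.89 CPM in WT. With the class mix held fixed, their log2 ratios were -0.04 and 0.28. Globin genes are near-identical copies, so reads may be split among them.

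The lowest genes over all cells were also more than 2-fold lower with the class mix held fixed. The interferon-induced GTPase gene mxc stood at 26.3 CPM in het and 215 CPM in WT, a log2 ratio of -3.03 (-3.10 to -2.97). After adding 10 CPM its log2 ratio was -2.63, and -2.49 with the class mix held fixed. The skeletal alpha actin gene acta1a stood at 14.7 CPM in het and 153 CPM in WT, and the small heat shock protein gene hspb6 at 32.9 CPM in het and 229 CPM in WT. Further genes of this kind were zgc:101699 (10.6 CPM in het and 161 CPM in WT), zgc:122979 (9.90 CPM in het and 140 CPM in WT) and si:dkey-79f11.10 (67.4 CPM in het and 503 CPM in WT). With the class mix held fixed, the log2 ratios of these 6 genes lay between -2.93 and -2.19.

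Of the transcription factors downstream of cloche, the 4 named here had low levels over all cells, higher in het in plain CPM. The vessel and blood factor gene etv2 stood at 5.59 CPM in het and 1.21 CPM in WT, with 416 UMIs in het and 141 UMIs in WT. The blood and endothelial factor genes tal1 and lmo2 stood at 7.44 and 32.3 CPM in het and at 2.62 and 12.9 CPM in WT. The erythroid and thrombocyte factor gene gata1a stood at 2.93 CPM in het and 0.300 CPM in WT. After adding 10 CPM, the log2 ratios were 0.48 for etv2, 0.47 for tal1, 0.88 for lmo2 and 0.33 for gata1a. With the class mix held fixed they were 0.36 for etv2, 0.12 for tal1, 0.27 for lmo2 and 0.14 for gata1a. Of 26 measured vessel and blood transcription factors, 0 differed by 2-fold on this scale, 21 lay above 0 and the median log2 ratio was 0.25, against 0.05 over all genes. Genes of a few CPM can hardly pass 2-fold on this scale, so that count does not show equal levels.

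Within endothelial-like cells, 6270 genes were measured, of which 54 were 2-fold higher in het (0.861%) and 115 were 2-fold lower (1.83%), or 2.7% either way. The factor gene etv2 stood at 62.1 CPM in het and 19.2 CPM in WT, a log2 ratio of 1.69 (1.36 to 2.04). After thinning to 1000 UMIs it was found in 5.77% of het cells and 1.66% of WT cells. Thinned values, here and below, leave out cells under 1000 UMIs. These were 34 het and 23 WT cells in this class, and 238 het and 799 WT cells in the cardiomyocyte-like class. In cardiomyocyte-like cells, a class that should lack it, etv2 was found in 0% of thinned cells of both libraries and stood at 0.226 CPM in het and 0.176 CPM in WT. In contrast, tal1 stood at 9.32 CPM in het and 17.4 CPM in WT, a log2 ratio of -0.90 (-1.46 to -0.36), and lmo2 at 116 CPM in het and 99.0 CPM in WT. Of 16 measured vessel and blood transcription factors, 1 was 2-fold higher (etv2) and 1 was 2-fold lower (cebpa, a myeloid factor gene, at 19.5 CPM in het and 59.3 CPM in WT), with a median log2 ratio of 0.02.

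The list of endothelial and endocardial genes had 60 measured members outside the marker panel in this class. Of them, 7 were 2-fold higher and 1 was 2-fold lower, 42 lay above 0, and the median log2 ratio was 0.28, against -0.0024 over all genes of the class. The higher members included genes of secreted vasoactive peptides and their receptors. The endothelin genes edn1 and edn2 stood at 147 and 105 CPM in het and at 45.5 and 33.1 CPM in WT. The apelin receptor gene aplnra stood at 88.5 CPM in het and 24.2 CPM in WT, a log2 ratio of 1.87 (1.58 to 2.18). The Notch pathway genes hey1, a target, and jag2b, a ligand, were also higher, hey1 at 15.2 CPM in het and 1.40 CPM in WT. The 1 lower member was klf2b, a factor gene responsive to blood flow, at 116 CPM in het and 248 CPM in WT.

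Genes of signals between cells differed in the same class. Of 17 measured chemokine and receptor genes, 3 were 2-fold higher and 1 was 2-fold lower. The ligand genes cxcl12a and cxcl12b stood at 71.6 and 161 CPM in het and at 23.0 and 66.5 CPM in WT, and the receptor gene cxcr4a at 39.2 CPM in het and 7.79 CPM in WT. The B panel stood at 17.2 CPM in het and 1.597 CPM in WT in these cells, and cxcr4a was among the leading genes of B-like cells. The part of B-cell RNA in this value was not tested. The scavenging receptor gene ackr4b stood at 64.0 CPM in het and 150 CPM in WT. Of 34 measured growth factor and receptor genes, 3 were 2-fold higher and 1 was 2-fold lower, with a median log2 ratio of 0.16. The higher ones were cxcl12a, cxcl12b and pdgfbb. The pericyte attractant gene pdgfbb stood at 134 CPM in het and 41.7 CPM in WT, a log2 ratio of 1.69 (1.46 to 1.92).

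The highest and lowest endothelial genes by size are given next. The retinol-binding protein gene rbp2a stood at 553 CPM in het and 122 CPM in WT, and CABZ01075125.1 at 128 CPM in het and 34.3 CPM in WT. The homeobox gene hlx1 stood at 73.5 CPM in het and 17.4 CPM in WT. BX908782.2, at 199 CPM in het and 45.9 CPM in WT, had 407 of its 940 het UMIs in 1 cell. The gene si:ch211-5k11.8 stood at 255 CPM in het and 75.9 CPM in WT, beside an erythrocyte panel of 852 CPM in het and 207 CPM in WT in these cells. The part of free erythrocyte RNA in this value was not tested. On the lower side, fkbp5, which encodes a co-chaperone of the glucocorticoid receptor, stood at 93.4 CPM in het and 662 CPM in WT, a log2 ratio of -2.83 (-2.97 to -2.68). The Myc antagonist gene mxi1 stood at 36.6 CPM in het and 238 CPM in WT, the deubiquitinase gene usp2a at 37.3 CPM in het and 190 CPM in WT, CABZ01073795.1 at 67.1 CPM in het and 303 CPM in WT, and the insulin-like growth factor binding gene igfbp6b at 43.2 CPM in het and 200 CPM in WT.

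The make-up of the endothelial-like class differed between the libraries. Cells with UMIs of the endocardial genes spock3, aqp8a.1 and f8 and without plvapb, a gene of fenestrated capillary endothelium, were 76.1% of the class in het and 89.5% in WT. Cells with plvapb alone were 7.42% in het and 2.88% in WT. Within the endocardial-gene cells, etv2 stood at 48.5 CPM in het and 14.8 CPM in WT (log2 ratio 1.72, 1.30 to 2.15), edn1 at 180 CPM in het and 49.5 CPM in WT, and fkbp5 at 87.5 CPM in het and 671 CPM in WT. In plvapb cells the log2 ratio of etv2 was 0.76 (-0.11 to 1.72). Within the endocardial-gene cells, 3 of the 5 highest genes of the class no longer differed by 2-fold. After adding 10 CPM, the log2 ratio was 0.60 for rbp2a, 0.82 for CABZ01075125.1 and 0.82 for hlx1, against 2.098, 1.63 and 1.61 in the whole class. The gene pdgfbb stood at 28.5 CPM in het and 8.40 CPM in WT in the endocardial-gene cells. In plvapb cells its log2 ratio was 0.42 (-0.04 to 0.91). In the endocardial-gene cells cxcl12a had 10 UMIs in het and 6 UMIs in WT. In plvapb cells, cxcl12a stood at 297 CPM in het and 466 CPM in WT, a log2 ratio of -0.65 (-1.05 to -0.25), and in the endocardial-gene cells the log2 ratio was 1.09 (-0.51 to 2.84), so its order in the whole class was not found in plvapb cells and was not detectable in the endocardial-gene cells. This split was chosen after the data had been seen.

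**Figure D2:**
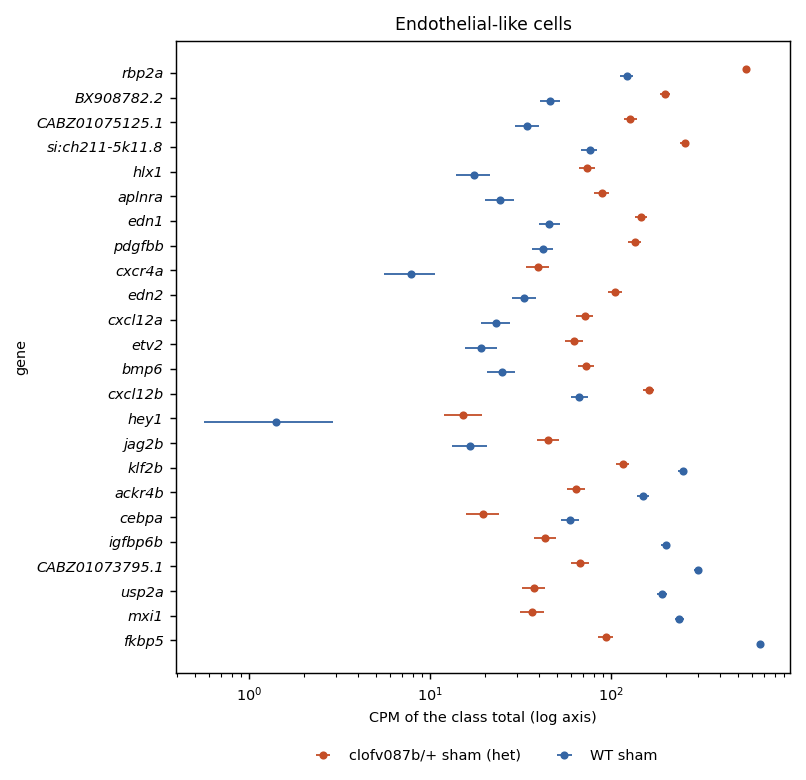
Levels of the genes named by rule and of listed endothelial, vessel and blood transcription factor, chemokine and growth factor genes that differed by 2-fold in endothelial-like cells (CPM of the class total, logarithmic axis) in het sham and WT sham, with exact 95% Poisson intervals that cover counting error only. The genes are ordered by log2 ratio after adding 10 CPM, with rbp2a at the top (553 CPM in het and 122 CPM in WT) and fkbp5 at the bottom (93.4 CPM in het and 662 CPM in WT), and etv2 stood at 62.1 CPM in het and 19.2 CPM in WT.

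In cardiomyocyte-like cells, some genes of heart-patterning transcription factors were higher in het, and genes of skeletal actin and some of the response to glucocorticoids were lower. Of 11517 measured genes, 34 were 2-fold higher (0.295%) and 89 were 2-fold lower (0.773%), or 1.07% either way. The Notch-responsive repressor gene hey2, which acts in ventricular identity, stood at 106 CPM in het and 9.37 CPM in WT, a log2 ratio of 3.497 (3.37 to 3.63). After thinning it was found in 8.32% of het cells and 0.837% of WT cells. The Iroquois homeobox genes irx1a and irx2a stood at 193 and 63.0 CPM in het and at 42.4 and 14.3 CPM in WT. The finTRIM gene ftr82 stood at 59.1 CPM in het and 10.0 CPM in WT, and amotl2a, an angiomotin-like gene of the Hippo pathway, at 84.4 CPM in het and 18.2 CPM in WT.

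Of 24 measured cardiac transcription factors, 4 were 2-fold higher and 0 were 2-fold lower, and the median log2 ratio was 0.21, against 0.03 over all genes of the class. Scaling by the median of ratios moved this list's median to 0.11. Beside hey2 and irx1a, the higher members were hand2 (187 CPM in het and 61.9 CPM in WT) and gata5 (54.1 CPM in het and 17.99 CPM in WT), both of which act in heart formation. Their partner nkx2.5 stood at 110 CPM in het and 80.3 CPM in WT, and tbx20 at 44.5 CPM in het and 24.4 CPM in WT. The lowest members were gata4, at 5.55 CPM in het and 7.74 CPM in WT, and klf2b, at 1.32 CPM in het and 3.55 CPM in WT.

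Contractile genes split by member. Of 44 measured sarcomere genes outside the marker panel, 2 were 2-fold higher and 3 were 2-fold lower, with a median log2 ratio of 0.07. The myosin heavy chain genes myh7ba and myh7bb were higher, at 436 and 253 CPM in het and at 194 and 112 CPM in WT. The skeletal alpha actin genes acta1a and acta1b were lower, at 33.9 and 1189 CPM in het and at 276 and 4121 CPM in WT. These actin genes are close paralogs, so reads may have been shared between them. The titin cap gene tcap stood at 108 CPM in het and 444 CPM in WT. The natriuretic peptide gene nppa, a gene of cardiac wall stress, stood at 1281 CPM in het and 1327 CPM in WT, and nppb at 769 CPM in het and 1036 CPM in WT, a log2 ratio of -0.43 (-0.45 to -0.41). Calcium handling genes had 0 of 23 measured members past 2-fold, and the highest was the T-type channel gene cacna1g, at 61.4 CPM in het and 31.2 CPM in WT.

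By size, 3 further genes were among the lowest of the class. The insulin receptor substrate gene irs1 stood at 19.7 CPM in het and 135 CPM in WT, hspb6 at 75.3 CPM in het and 412 CPM in WT, and zgc:122979 at 21.0 CPM in het and 246 CPM in WT. Of 38 measured genes listed under fatty acid oxidation, 0 were 2-fold higher and 3 were 2-fold lower, while 25 lay above 0 and the median log2 ratio was 0.07. These 3 do not encode oxidation enzymes. They were pdk2a and pdk2b, which encode kinases that inhibit pyruvate dehydrogenase, at 249 and 310 CPM in het and at 754 and 683 CPM in WT, and the uncoupling protein gene ucp2, at 61.2 CPM in het and 177 CPM in WT. Both pdk2b and ucp2 were 2-fold lower in at least 5 of the 6 classes compared. Of 36 measured glycolysis genes 1 was 2-fold lower, and of 48 listed heat shock and chaperone genes 0 differed by 2-fold. That list did not hold the small heat shock protein gene hspb6, which was 2-fold lower. Of 31 measured circadian genes, 2 were 2-fold higher, bhlhe40 and dbpb, and 0 were 2-fold lower. The clock repressor gene bhlhe40 stood at 319 CPM in het and 126 CPM in WT, and dbpb at 88.9 CPM in het and 36.6 CPM in WT. The gene per2 stood at 8.84 CPM in het and 26.8 CPM in WT. In other classes, circadian genes 2-fold higher and lower were 0 and 3 of 25 (endothelial-like) and 0 and 4 of 26 (epicardial or fibroblast-like). They were 1 and 4 of 21 in mural-like, 2 and 0 of 34 in macrophage-like and 1 and 0 of 13 in thrombocyte-like cells. Over all genes, 1.83% were 2-fold lower in endothelial-like, 2.25% in epicardial or fibroblast-like and 6.66% in mural-like cells. The share 2-fold higher was 1.84% in mural-like, 0.568% in macrophage-like and 2.36% in thrombocyte-like cells. No label gives the hour of collection. In cardiomyocyte-like cells the macrophage panel stood at 222 CPM in het and 608 CPM in WT. The mural panel there stood at 1480 CPM in het and 855 CPM in WT. The part of these panels in the gene differences of the class was not tested.

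**Figure D3:**
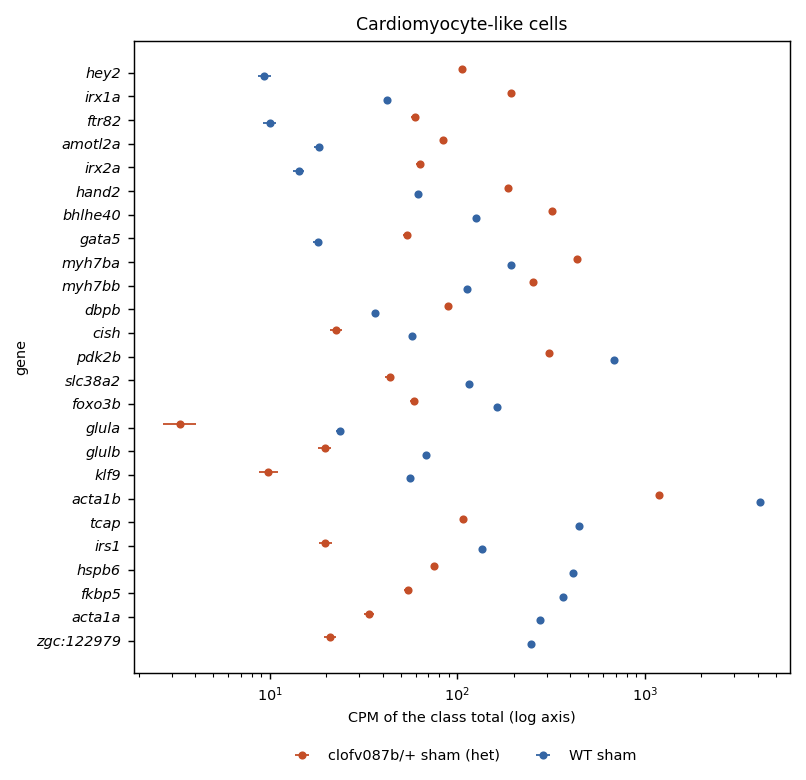
Levels of the genes named by rule and of listed cardiac transcription factor, sarcomere, circadian and glucocorticoid-responsive genes that differed by 2-fold in cardiomyocyte-like cells (CPM of the class total, logarithmic axis) in het sham and WT sham, with exact 95% Poisson intervals that cover counting error only. At the top hey2 stood at 106 CPM in het and 9.37 CPM in WT, and at the bottom zgc:122979 stood at 21.0 CPM in het and 246 CPM in WT.

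Several glucocorticoid-responsive genes were lower in het in each class compared. Cortisol, the glucocorticoid of fish, acts through the receptor encoded by nr3c1 and induces fkbp5, klf9 and tsc22d3, among others. The gene fkbp5 was 2-fold lower in each of the 6 classes compared, which were those with at least 100 cells in both libraries. Beside the endothelial and cardiomyocyte values (54.8 CPM in het and 366 CPM in WT in cardiomyocyte-like cells), fkbp5 stood at 49.95 CPM in het and 459 CPM in WT in epicardial or fibroblast-like cells. It stood at 33.9 CPM in het and 491 CPM in WT in mural-like cells, at 119 CPM in het and 395 CPM in WT in macrophage-like cells, and at 170 CPM in het and 717 CPM in WT in thrombocyte-like cells. The Krüppel-like factor gene klf9 was also 2-fold lower in each of the 6 classes. Its levels were 9.84 CPM in het and 56.2 CPM in WT in cardiomyocyte-like cells, 25.2 CPM in het and 113 CPM in WT in endothelial-like cells, and 47.8 CPM in het and 322 CPM in WT in thrombocyte-like cells.

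In no class was a measured member of this list 2-fold higher in het. The number that were 2-fold lower was 8 of 30 in cardiomyocyte-like cells (median log2 ratio -0.56), 5 of 28 in endothelial-like cells (-0.32), 10 of 28 in epicardial or fibroblast-like cells (-0.90), 12 of 25 in mural-like cells (-0.90), 3 of 29 in macrophage-like cells (-0.10) and 3 of 17 in thrombocyte-like cells (-0.68). Over all genes, the share 2-fold lower was 0.773% in cardiomyocyte-like, 1.83% in endothelial-like, 2.25% in epicardial or fibroblast-like, 6.66% in mural-like, 1.22% in macrophage-like and 2.07% in thrombocyte-like cells. The share over all genes includes genes of a few CPM that can hardly pass 2-fold, and it was not matched to the levels of the list. With 1 CPM added, genes past 2-fold either way in cardiomyocyte-like cells rose from 123 to 544, and lower members of the list from 8 to 15. Over all genes of a class the median lay between -0.01 and 0.04. The receptor gene nr3c1 stood at 56.0 CPM in het and 38.07 CPM in WT in cardiomyocyte-like cells and at 81.5 CPM in het and 53.1 CPM in WT in endothelial-like cells. The glutamine synthetase genes glula and glulb were both 2-fold lower in cardiomyocyte-like cells, at 3.32 and 19.7 CPM in het and at 23.6 and 68.4 CPM in WT. Members that varied by class included the kinase gene sgk1, at 64.9 CPM in het and 207 CPM in WT in mural-like cells but 51.3 CPM in het and 39.8 CPM in WT in thrombocyte-like cells. The WT thrombocyte-like class held 276191 UMIs in all, so the order of sgk1 there rests on few UMIs. The phosphatase gene dusp1 stood at 102 CPM in het and 70.28 CPM in WT in cardiomyocyte-like cells. The list was chosen with earlier results of these libraries known, and its direction is therefore a description.

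**Figure D4:**
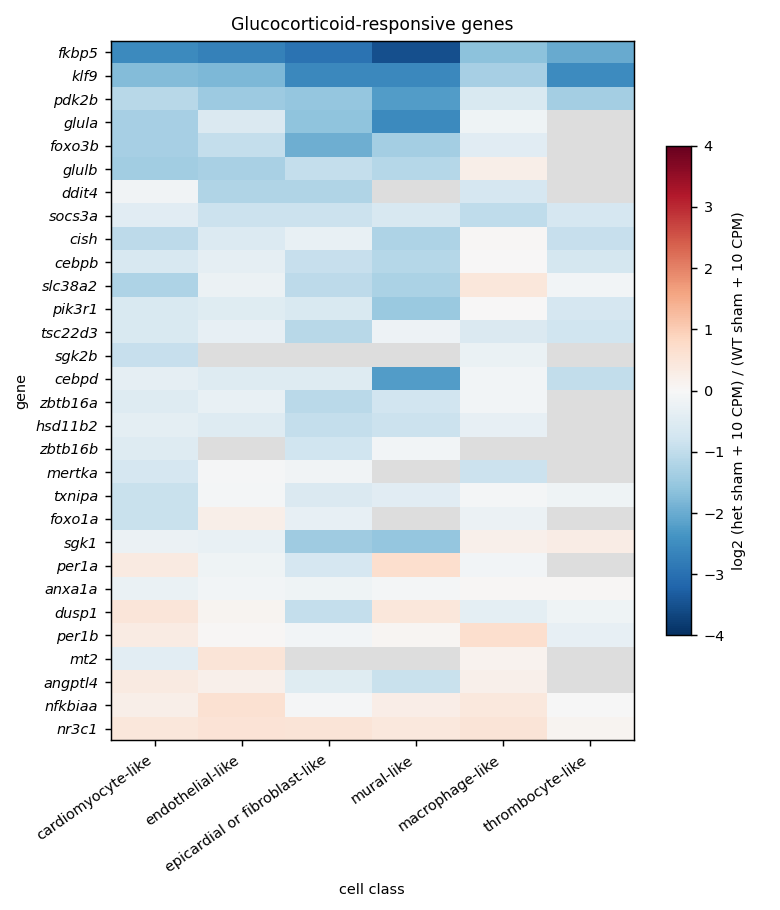
Log2 ratio of het sham over WT sham, after adding 10 CPM, for glucocorticoid-responsive genes (rows) in 6 cell classes (columns). Blue is lower in het, red is higher in het and grey was not measured. The rows of fkbp5 and klf9 are blue in each of the 6 columns, and the row of the receptor gene nr3c1 is pale red.

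In macrophage-like cells, several interferon-stimulated genes were lower and several chemokine genes were higher in het. Of 11084 measured genes, 63 were 2-fold higher (0.568%) and 135 were 2-fold lower (1.22%), or 1.79% either way. Interferon-stimulated genes are switched on by signalling from virus-sensing cells through STAT factors. Of 41 measured members, 8 were 2-fold lower and 0 were 2-fold higher, 34 lay below 0, and the median log2 ratio was -0.37, against 0.03 over all genes of the class. Among the Mx genes, which encode antiviral GTPases, mxc stood at 99.9 CPM in het and 684 CPM in WT, mxf at 115 CPM in het and 407 CPM in WT, and mxg at 2.43 CPM in het and 88.8 CPM in WT. Mx genes are a family of close copies, and reads may have been shared between them. The signalling genes stat1b and socs1b stood at 57.6 and 12.2 CPM in het and at 197 and 81.4 CPM in WT, and the guanylate-binding gene gbp1 at 211 CPM in het and 589 CPM in WT.

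Other members of the list were not lower. The gene isg15 stood at 182 CPM in het and 162 CPM in WT, rsad2 at 19.98 CPM in het and 9.61 CPM in WT, and stat1a at 197 CPM in het and 159 CPM in WT. After thinning to 1000 UMIs, 71.5% of het macrophage-like cells (69.4 to 73.7%) and 82.9% of WT macrophage-like cells (81.4 to 84.3%) held at least 2 UMIs of the list. Without thinning these shares were 94.2% in het and 96.9% in WT, at median depths of 7910 UMIs in het and 9942 UMIs in WT. In cardiomyocyte-like cells the thinned shares were 8.05% in het and 14.5% in WT. The macrophage panel there stood at 222 CPM in het and 608 CPM in WT, and its part was not tested. In endothelial-like cells the thinned shares were 21.6% in het and 31.3% in WT. Members also lay mostly below 0 in endothelial-like (23 of 25, median -0.32) and epicardial or fibroblast-like cells (13 of 15, -0.29). Below 0 were 27 of 36 in cardiomyocyte-like (-0.14), 4 of 5 in mural-like (-0.07) and 5 of 9 in thrombocyte-like cells (-0.21). Further genes at the low end in macrophage-like cells were zgc:101699, si:dkeyp-1h4.6 and si:dkey-79f11.10. They stood at 37.1, 42.4 and 233 CPM in het and at 509, 375 and 1556 CPM in WT.

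Chemokine genes split by kind. Of 36 measured chemokine and receptor genes in macrophage-like cells, 5 were 2-fold higher and 2 were 2-fold lower, with a median log2 ratio of 0.32. The higher ones were ccl39.1 (94.1 CPM in het and 12.2 CPM in WT), cxcr4a (28.2 CPM in het and 1.84 CPM in WT), ccl38.1 (54.9 CPM in het and 13.9 CPM in WT), the neutrophil attractant gene cxcl8a (261 CPM in het and 95.2 CPM in WT) and its receptor gene cxcr1. Of the 1668 het UMIs of ccl39.1, 99.2% lay in the top 5% of cells and 371 in 1 cell. The lower ones were the interferon-induced ligand genes cxcl11.5 (119 CPM in het and 283 CPM in WT) and cxcl11.8 (13.6 CPM in het and 124 CPM in WT). In these cells the B panel stood at 9.54 CPM in het and 0.795 CPM in WT, and cxcr4a was among the leading genes of B-like cells. The part of B-cell RNA in the cxcr4a value was not tested.

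The highest macrophage genes differed in how many cells carried them. The coagulation factor gene f13a1a.1 stood at 651 CPM in het and 94.7 CPM in WT, but 1 het cell held 3862 of its 11538 UMIs, and it was found in 0.922% of thinned het cells and 0.53% of thinned WT cells. In contrast, tnfaip2b, a gene induced by tumour necrosis factor in mammals, was found in 12.8% of thinned het cells and 2.65% of thinned WT cells, at 141 CPM in het and 23.4 CPM in WT. The cytokine gene tnfsf12 stood at 75.5 CPM in het and 13.001 CPM in WT, and was found in 7.83% of thinned het cells and 2.31% of thinned WT cells. The chemokine gene ccl39.5 stood at 68.8 CPM in het and 12.7 CPM in WT, but lay in few cells. It was found in 2.65% of thinned het cells and 0.681% of thinned WT cells, and 244 of its 1219 het UMIs were in 1 cell. The inflammatory cytokine genes il1b and tnfa stood at 514 and 24.2 CPM in het and at 411 and 18.5 CPM in WT, and il15, a lymphocyte growth factor gene, stood at 8.18 CPM in het and 37.1 CPM in WT. Of 19 measured antigen presentation genes, 1 was 2-fold higher, 11 lay below 0 and the median log2 ratio was -0.06. The higher one was ciita, the master regulator gene of MHC class II, at 25.7 CPM in het and 5.81 CPM in WT. The B panel in these cells stood at 9.54 CPM in het and 0.795 CPM in WT. The part of B-cell RNA in the ciita value was not tested.

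**Figure D5:**
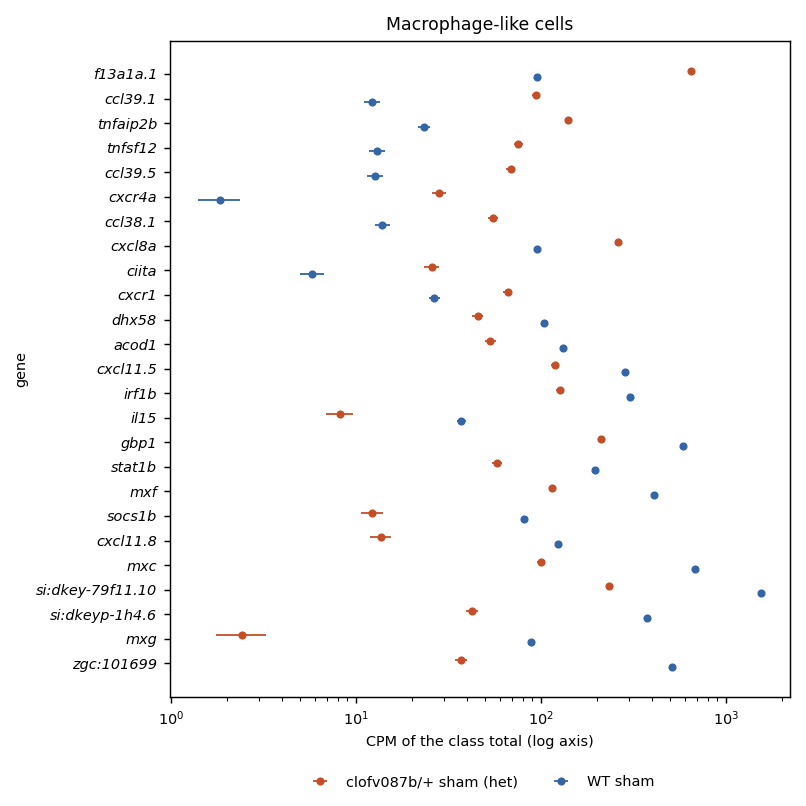
Levels of the genes named by rule and of listed interferon-stimulated, chemokine, antigen presentation and inflammatory genes that differed by 2-fold in macrophage-like cells (CPM of the class total, logarithmic axis) in het sham and WT sham, with exact 95% Poisson intervals that cover counting error only. At the top f13a1a.1 stood at 651 CPM in het and 94.7 CPM in WT, and the interferon-induced gene mxc stood at 99.9 CPM in het and 684 CPM in WT.

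In thrombocyte-like cells, of 2461 measured genes, 58 were 2-fold higher (2.36%) and 51 were 2-fold lower (2.07%), or 4.43% either way, and the WT class had 142 cells. The class held 1150360 UMIs in het and 276191 UMIs in WT, and a gene was measured with at least 50 UMIs in either library. A gene higher in het could thus be measured at a lower level than a gene higher in WT. The counts of higher and lower genes are therefore not on equal terms. Of 30 listed adhesion, granule and signalling genes, 11 were measured outside the marker panel, and 0 of these differed by 2-fold, a count too small to be set apart from the share over all genes. Their median log2 ratio was 0.07, against 0.02 over all genes of the class. The lowest of them was the coagulation factor gene f5, at 748 CPM in het and 1488 CPM in WT. The fibronectin gene fn1b stood at 2993 CPM in het and 4272 CPM in WT, a log2 ratio of -0.51 (-0.61 to -0.42). Among 11 vessel and blood transcription factors, gfi1b, which acts in erythroid and thrombocyte differentiation, was 2-fold higher at 99.1 CPM in het and 43.4 CPM in WT. The WT class held 276191 UMIs in all, so its gfi1b level rests on few UMIs. The factor gene gata1a stood at 130 CPM in het and 68.8 CPM in WT, a log2 ratio of 0.91 (0.22 to 1.69) on 149 UMIs in het and 19 UMIs in WT. For tal1 the log2 ratio was 0.31 (-0.13 to 0.76) and for lmo2 0.13 (-0.11 to 0.37), and both intervals include 0.

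By size, zgc:193505 was the highest gene of the class, with 158 UMIs in het and 1 UMI in WT, a log2 ratio of 5.25 (2.75 to 10.6). The chemokine gene ccl34b.4 had 79 UMIs in het and 3 UMIs in WT, with 51 of the het UMIs in 1 cell, and is highest in T or NK-like cells. The T or NK panel in thrombocyte-like cells had 82 UMIs in het and 1 UMI in WT, and its part in the ccl34b.4 value was not tested. With likely doublets removed, the log2 ratio of ccl34b.4 after adding 10 CPM was 0.75, against 1.92. The gene dip2ba had 63 UMIs in het and 2 UMIs in WT, a log2 ratio of 2.92 (1.01 to 5.996). Like zgc:193505 and ccl34b.4, it was measured through its het UMIs alone. Beside fkbp5 and klf9, mibp stood at 32.2 CPM in het and 221 CPM in WT.

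In epicardial or fibroblast-like cells, which make the matrix and growth factors of the heart wall, 46 of 5022 measured genes were 2-fold higher (0.916%) and 113 were 2-fold lower (2.25%), or 3.17% either way. Of 35 measured extracellular matrix genes outside the marker panel, 0 were 2-fold higher and 1 was 2-fold lower, the lysyl oxidase-like gene loxl2a, at 26.6 CPM in het and 182 CPM in WT. Among 35 growth factor and receptor genes, 1 was 2-fold higher: cyp26b1, which encodes a retinoic acid-degrading enzyme, at 141 CPM in het and 58.7 CPM in WT. The cardiomyocyte growth factor gene nrg1 stood at 13.4 CPM in het and 24.2 CPM in WT, a log2 ratio of -0.85 (-1.40 to -0.30) on 59 UMIs in het and 56 UMIs in WT. The angiogenic factor gene vegfaa stood at 72.0 CPM in het and 86.7 CPM in WT. Immediate early genes, which respond within minutes to stress and handling, had 0 of 39 members 2-fold higher and 5 of 39 2-fold lower, with a median log2 ratio of -0.50. The lowest were egr2a (15.0 CPM in het and 80.2 CPM in WT) and egr3 (23.8 CPM in het and 97.5 CPM in WT), while atf3 stood at 400 CPM in het and 389 CPM in WT. Immediate early genes also lay mostly below 0 in mural-like (32 of 36, median -0.41) and cardiomyocyte-like cells (37 of 42, -0.29). The same held in endothelial-like (29 of 38, -0.21) and thrombocyte-like cells (25 of 33, -0.23). In macrophage-like cells 22 of 43 lay below 0 (-0.01).

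The highest genes of this class lay in few cells. BX908782.2 had 1335 UMIs in het and 31 UMIs in WT, and 377 of the het UMIs were in 1 cell. The gene zgc:153704 stood at 589 CPM in het and 92.7 CPM in WT, with 94.7% of its het UMIs in the top 5% of cells. The gene si:ch1073-110a20.7 (2 gene identifiers summed) had 159 UMIs in het and 1 UMI in WT. On the lower side, beside fkbp5 and klf9 (23.4 CPM in het and 192 CPM in WT), zgc:122979 stood at 10.2 CPM in het and 123 CPM in WT.

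Mural-like cells had the largest share of genes past 2-fold among the 6 classes. Of 3469 measured genes, 64 were higher (1.84%) and 231 lower (6.66%), or 8.5% either way, on 297 het cells and 209 WT cells. The class held 2651514 UMIs in het and 1495476 UMIs in WT, against 30994825 and 62519267 UMIs in cardiomyocyte-like cells. A deep class measures genes of a few CPM that can hardly pass 2-fold on this scale. These shares depend on depth, so their order does not rank how much the classes differed. The Smad inhibitor gene smad6b stood at 55.4 CPM in het and 6.02 CPM in WT, a log2 ratio of 3.204 (2.24 to 4.36) on 147 UMIs in het and 9 UMIs in WT. The hyaluronan link protein gene hapln1b stood at 385 CPM in het and 111 CPM in WT, and amotl2a at 80.3 CPM in het and 18.1 CPM in WT. The genes fibinb and angptl7 stood at 21.9 and 8.30 CPM in het and at 296 and 134 CPM in WT, and both were highest in epicardial or fibroblast-like cells. Of the 201 WT UMIs of angptl7, 94.5% lay in the top 5% of cells and 68 in 1 cell. Of its 22 het UMIs, 10 lay in 1 cell. Over all cells angptl7 had the opposite order, at 33.7 CPM in het and 19.4 CPM in WT. The epicardial or fibroblast panel stood at 686 CPM in het and 613 CPM in WT in mural-like cells. The retinoic acid-degrading enzyme gene cyp26b1 stood at 50.5 CPM in het and 162 CPM in WT here, the opposite order to that in epicardial or fibroblast-like cells. The midkine gene mdkb and the growth factor gene hbegfa were 2-fold higher, at 1040 and 370 CPM in het and at 473 and 172 CPM in WT. The angiogenic factor gene vegfaa was 2-fold lower, at 21.9 CPM in het and 55.5 CPM in WT. Of 34 measured heat shock and chaperone genes, 1 was 2-fold higher, the collagen chaperone gene serpinh1b (200 CPM in het and 55.5 CPM in WT), and 8 were 2-fold lower, among them hsp70l (143 CPM in het and 398 CPM in WT) and hspa4a (9.43 CPM in het and 82.2 CPM in WT).

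Sarcomere genes were lower in the classes that are not cardiomyocytes, with medians between -1.11 in thrombocyte-like cells and -0.44 in macrophage-like cells. The cardiomyocyte panel was lower in het in those cells too, at 2457 CPM in het and 6097 CPM in WT in endothelial-like cells and at 4783 CPM in het and 11995 CPM in WT in thrombocyte-like cells. Free cardiomyocyte RNA and expression by these cells cannot be told apart for these genes. The same holds for hbba1, which in endothelial-like cells stood at 493 CPM in het and 125 CPM in WT.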

How the data were processed

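Per the labels, libraries were made with the 10x Genomics single-cell 3' kit. The deposited matrices hold raw counts of UMIs per gene and barcode, and the submitters' processing notes name Cell Ranger 3.0.2, Seurat 3.1.4 and genome build GRCz11. The step at which barcodes were called cells is not given in the sources used here. From these counts, cells were kept by the 3 limits in the opening. Of 98 panel genes, 95 were found. For each panel gene, the level per cell was divided by its 90th percentile among cells with a UMI in both libraries together, with a ceiling of 1, and averaged over the panel. A cell took the highest panel where it had at least 4 UMIs over at least 2 genes, a score of at least 0.15 and at least 1.5 times the next panel. The panels were written first, and these limits were set after the pooled cells had been seen. Doublets were kept in the values above, and their removal by Scrublet (scanpy 1.11.5) was an alternative.

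For each library, the UMIs of a class were added up and scaled to CPM. The identifiers of 528 symbols with more than 1 were summed. Ratios carry exact conditional binomial intervals, levels exact Poisson intervals and shares Clopper-Pearson intervals. Intervals cover counting error only. Named genes were, over all cells, the 6 highest and 6 lowest by the log2 ratio after adding 10 CPM. Within a class of 100 or more cells per library they were the 5 highest and 5 lowest, or 3 and 3 where a library had under 500 cells. Panel genes were left out, and so were genes whose mean level in the class was under 0.25 of that in another such class. A fixed set of 14 genes and the most extreme list members were added. Other list members past 2-fold, and the endothelial split, were picked after their values were seen. Members and lists were chosen with earlier results of these data known. The ranking and intervals were tried on simulated counts drawn with Poisson error from the summed levels of each class. Spread between cells and between libraries was not simulated, so that trial says nothing on how the intervals cover it. Neighbours of npas4l came from a RefSeq table of assembly GRCz12tu. Python 3.11.15, numpy 2.4.6, scipy 1.17.1 and pandas 2.3.3 were used.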

Additional observations from a re-analysis of the deposited data

How the results depend on the processing

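No paired analysis was possible because each genotype had 1 library. Alternatives were stricter cell limits (1000 UMIs, 500 genes, 15% mitochondrial), removal of 681 het and 1100 WT likely doublets, a stricter gate (8 UMIs, margin 3), thinning to 1000 UMIs, named cells as the denominator, scaling by the median of ratios, no minimum of UMIs, 1 CPM in place of 10 CPM and a fixed class mix. The median of ratios lowered log2 ratios of plain CPM by 0.18 over all cells and by 0.13 in cardiomyocyte-like cells, and raised them by 0.11 in thrombocyte-like cells. With 10 CPM added the shift varied by gene. The log2 ratio of the cardiomyocyte-like share was -0.93 under the stricter cell limits, -0.91 after thinning and -0.91 among named cells. Among named cells it was 0.24 for endothelial-like and -0.0827 for macrophage-like cells. After thinning it was 1.62 for epicardial or fibroblast-like and 1.15 for mural-like cells. Under the stricter gate it was 5.34 for B-like and 3.302 for erythrocyte-like cells. Genes past 2-fold either way over all cells numbered 799 with 1 CPM added and 111 with the class mix fixed, against 197. With 1 CPM added they numbered 544 in cardiomyocyte-like (against 123), 391 in endothelial-like (169), 270 in epicardial or fibroblast-like (159), 454 in mural-like (295) and 701 in macrophage-like cells (198). In thrombocyte-like cells they numbered 72 under the stricter gate and 536 with no minimum, against 109. With 1 CPM added, 15 glucocorticoid-responsive genes were lower in cardiomyocyte-like cells, 11 endothelial genes higher in endothelial-like cells and 11 chemokine genes higher in macrophage-like cells. With no minimum, 5 glucocorticoid-responsive genes were lower in thrombocyte-like cells. With the class mix fixed, the log2 ratios of 4 genes over all cells reversed, to -0.25 (hbba1), -0.31 (hbaa1), -0.45 (si:ch211-5k11.8) and -0.0412 (hbba2). The other 141 values for shares, counts and npas4l stayed within the interval or within 1.5 times. Of 370 values of named genes 366 kept their sign, 361 stayed past 2-fold and 84 moved beyond the interval. These counts include values that could not move. Dropping the minimum of UMIs cannot change the ratio of a named gene or of npas4l, and the npas4l ratio takes no added CPM. With doublets removed, f13a1a.1 was 2.82 over all cells (against 2.16) and 3.73 in macrophage-like cells (against 2.66), and under the stricter cell limits hbba2 was 1.65 (against 2.29) and hbaa2 1.52 (against 2.14). The causes of these moves were not tested beyond the construction of each alternative. Depth limits npas4l, and cell number limits the B-like class (9 WT cells) and the glia-like class (3 WT cells).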

Other observations

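Among 1810 genes measured in each of the 6 classes, 5 were 2-fold higher in het in each class and 4 were 2-fold lower in each. These were picked by that count after their values were seen. The higher ones were the globin genes hbba1 and hbaa1, the erythrocyte gene si:ch211-5k11.8, the ribosomal protein gene rpl29 and zgc:165555. Over all cells rpl29 stood at 2820 CPM in het and 1287 CPM in WT, a log2 ratio of 1.13 (1.12 to 1.14), and zgc:165555, a symbol of 24 summed identifiers, at 257 CPM in het and 84.8 CPM in WT. Among 82 ribosomal protein genes measured over all cells, 1 was 2-fold higher, 0 were 2-fold lower and the median log2 ratio was 0.01. The lower ones were fkbp5, klf9, acta1b and si:dkey-88j15.3, the last at 298 CPM in het and 1137 CPM in WT over all cells.

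The 4 amputated libraries were set beside these sham values, over all kept cells and with no class mix held fixed. The level of hey2 was 47.7, 14.03 and 5.44 CPM in het at sham, 3 dpa and 7 dpa (days post amputation) and 6.44, 15.4 and 6.71 CPM in WT at the same stages, so het sham was the highest of the 6. The level of fkbp5 was 76.3, 85.9 and 113 CPM in het and 386, 138 and 389 CPM in WT, and het sham was the lowest of the 6. The level of mxc was 26.3, 24.97 and 72.0 CPM in het and 215, 28.0 and 25.04 CPM in WT, and WT sham was the highest of the 6. The level of f13a1a.1 was 157, 0.59 and 376 CPM in het and 27.4, 0.49 and 346 CPM in WT, and it moved more between stages than between genotypes. The level of etv2 was 5.59, 1.97 and 2.76 CPM in het and 1.21, 1.62 and 2.17 CPM in WT.

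In macrophage-like cells, 77 of 89 nuclear oxidative phosphorylation genes lay below 0, with 3 past 2-fold lower and a median log2 ratio of -0.41, while the 13 measured mitochondrial genome transcripts lay above 0, with 1 past 2-fold higher and a median of 0.40. Over all genes of the class, 0.568% were 2-fold higher, 1.22% were 2-fold lower and the median was 0.03. The oxidative phosphorylation genes also lay mostly below 0 in endothelial-like (75 of 86, median -0.29) and thrombocyte-like cells (59 of 76, -0.33). In epicardial or fibroblast-like cells 62 of 85 lay below 0 (-0.16). Fewer did so in mural-like (29 of 82, 0.12) and cardiomyocyte-like cells (40 of 90, 0.02). Mitochondrial genome transcripts above 0 were 13 of 13 in cardiomyocyte-like, 12 of 12 in mural-like and 9 of 13 in endothelial-like cells. They were 8 of 12 in epicardial or fibroblast-like and 5 of 12 in thrombocyte-like cells. The cardiomyocyte panel in macrophage-like cells stood at 1232 CPM in het and 2503 CPM in WT. Its part in the oxidative phosphorylation values was not tested. Macrophage-like cells had 39 of 42 measured cell cycle genes above 0, with 0 past 2-fold and a median of 0.21. In cardiomyocyte-like cells 13 of 24 cell cycle genes lay above 0, with a median of 0.01, against 0.03 over all genes of that class.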
